A study of Homo sapiens with 4 samples.

Results

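HHIP, the Hedgehog interacting protein, and 8 further genes of the Hedgehog pathway (PTCH1, SMO, SUFU, GLI1, GLI2, GLI3, GAS1 and CDON) were followed in Hs578T cells, an established human breast carcinoma line, after depletion of TLN1, which encodes the integrin adaptor talin-1. HHIP was chosen by its higher count in TLN1-depleted cells in these same libraries, so its rise is given here as a description with no test. The other 8 genes were chosen by their place in the pathway, with earlier results of these data known. The question asked of them was whether PTCH1 and GLI1 moved with HHIP. All 9 genes were found among the 60721 genes of the count table, and all 9 are among the 16137 genes that passed the filter on low counts. Both groups were transfected with GFP, together with a non-targeting RNA (SCR, 2 libraries) or with siRNA directed at TLN1 (siTLN1, 2 libraries), at 1.6 µM RNA, and RNA was collected after 48 h. The cells are of 1 line, and the sequence of the siRNA is not given in the sources used here.

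Hedgehog signalling begins when a secreted ligand (SHH, IHH or DHH) binds the receptor PTCH1, which otherwise holds the membrane protein SMO inactive. CDON, BOC and GAS1 are coreceptors that help ligand reach PTCH1, whereas HHIP is a membrane-anchored glycoprotein that binds the ligands and keeps them from the receptor. Active SMO, working at the primary cilium, relieves the restraint that SUFU and protein kinase A place on the GLI transcription factors, of which GLI2 acts mainly as an activator and GLI3 mainly as a repressor. GLI1, PTCH1 and HHIP are themselves transcribed in response to GLI, so in many tissues they rise and fall with pathway activity. In the embryonic mammary gland the repressor form of GLI3 is needed for some of the buds to form.

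The start regions of HHIP and PTCH1 are shown because both genes are known GLI targets while their transcripts differed in these cells. The sequences are RefSeq promoter windows of 300 bases on GRCh38.p14 that end 50 bases into the transcript, printed 5′ to 3′ along the gene's strand. In the HHIP window (chr4:144645906-144646205, plus strand) the capitals mark the 236 bases (chr4:144645970-144646205) that also lie in the window of the antisense gene HHIP-AS1, whose RefSeq start site lies on the opposite strand 137 bases away from that of HHIP. In the PTCH1 window (chr9:95509217-95509516, minus strand) the capitals mark a match to the GLI consensus word.
HHIP: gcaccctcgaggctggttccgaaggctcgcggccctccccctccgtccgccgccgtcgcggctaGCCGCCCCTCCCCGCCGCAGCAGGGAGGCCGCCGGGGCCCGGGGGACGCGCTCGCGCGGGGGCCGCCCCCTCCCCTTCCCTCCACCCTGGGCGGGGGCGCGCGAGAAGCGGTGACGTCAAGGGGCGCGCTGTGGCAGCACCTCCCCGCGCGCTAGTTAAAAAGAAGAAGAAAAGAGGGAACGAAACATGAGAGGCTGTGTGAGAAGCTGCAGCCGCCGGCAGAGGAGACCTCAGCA
PTCH1: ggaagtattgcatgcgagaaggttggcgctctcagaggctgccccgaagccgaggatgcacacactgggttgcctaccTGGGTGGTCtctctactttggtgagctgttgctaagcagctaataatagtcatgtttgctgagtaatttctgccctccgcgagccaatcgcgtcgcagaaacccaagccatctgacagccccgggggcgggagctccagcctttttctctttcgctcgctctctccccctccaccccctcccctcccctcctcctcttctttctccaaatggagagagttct
The word searched was GACCACCCA, or TGGGTGGTC on the opposite strand, a commonly used GLI consensus, and only exact matches were counted. It occurs in 1 of 5 PTCH1 windows, at chr9:95509430-95509438, beginning 172 bases before the start site, and in 0.236% of all 35116 windows in the RefSeq table. Windows were found for 7 of the 9 genes (GLI1 and GLI3 had none), and only PTCH1 among these 7 held the word. The HHIP window did not hold it, also when 1 mismatch was allowed, as 6.74% of all windows do. A match in such a window is a description of the letters and does not show binding.

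The libraries were checked first. TLN1, the target of the siRNA, had 868 and 874 CPM (counts per 1000000 counted read pairs, scaled between libraries by the TMM method) in SCR against 51.9 and 44.8 CPM in siTLN1, in the direction of the labels. Total counts per library ran from 31854322 to 46353297, and replicates of a group differed by more than counting noise (chi-square per degree of freedom 13.7 in SCR and 18.5 in siTLN1). Of 6 markers of a mesenchymal breast carcinoma line, all 6 passed the filter, with a summed level of 31080 to 33940 CPM in SCR and 33960 to 39440 CPM in siTLN1, and 1 of them, CDH2 (N-cadherin), fell. FN1 alone had 23600 to 32400 CPM, most of the mesenchymal sum. The labels call the cells epithelial. The 6 luminal epithelial markers summed to 13.7 to 14.3 CPM in SCR and 15.6 to 17.6 CPM in siTLN1. GATA3 (9.75 to 13.8 CPM) made up most of this, with FOXA1 at 2.62 to 3.43 CPM and CDH1 at 0.409 to 0.851 CPM. EPCAM, ESR1 and KRT19 each had 6 counts or fewer in every library, KRT19 being at 0 in SCR. Immune and endothelial markers (3 each) summed to 0.912 CPM and 4.72 CPM or less in every library, and CD3E was at 0.

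HHIP was the most abundant of the 9 transcripts per length, and it was higher in both siTLN1 libraries. HHIP (ENSG00000164161.10; GRCh38, chromosome 4, 144646156 to 144745271, plus strand) had 2900 and 3550 raw counts in SCR and 7463 and 9088 in siTLN1. These counts correspond to 91.2 and 101.9 CPM in SCR and to 205 and 193 CPM in siTLN1. The groups did not overlap, and the lower siTLN1 library lay well above the higher SCR library. The share of all genes whose groups do not overlap was not counted, so such separation is only described, here and below. The means were 96.6 ± 7.57 CPM (SD, n = 2) and 199 ± 8.22 CPM (SD, n = 2), a 2.06-fold difference or 1.04 on the log2 scale. Leaving out any 1 library kept the log2 fold change between 0.97 and 1.13. Of 10486 genes with a mean of at least 5 CPM, 2 had a larger log2 fold change than HHIP. Per length, HHIP in SCR stood above 70% of the genes tested. In RNA from whole cultures, more cells expressing a gene and more RNA per cell cannot be told apart.

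**Figure D1:**
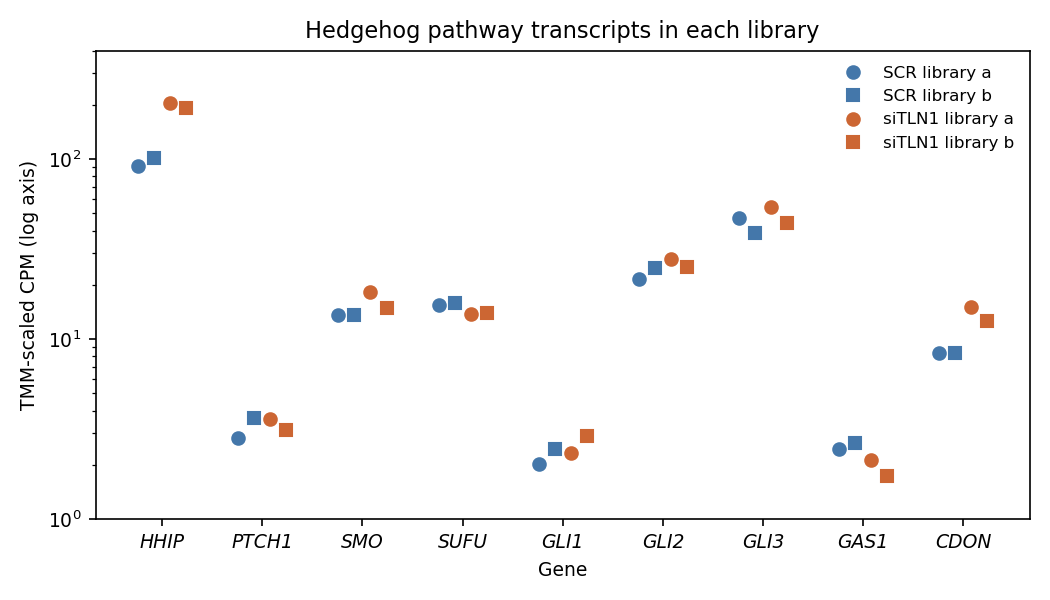
TMM-scaled CPM on a log axis of the 9 Hedgehog genes, 1 point per library (blue SCR, orange siTLN1, circles library a, squares library b). HHIP, CDON, SMO and GLI2 are higher and SUFU and GAS1 lower in both siTLN1 libraries. The points of PTCH1, GLI1 and GLI3 interleave between the groups. Of the genes tested here, only CDON passed in edgeR.

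PTCH1, the ligand receptor and a standard readout of pathway activity, did not change detectably. PTCH1 (ENSG00000185920.16; chromosome 9, 95442980 to 95517057, minus strand) had 2.80 and 3.62 CPM in SCR and 3.60 and 3.13 CPM in siTLN1. The siTLN1 values lay between the SCR values, so the groups overlapped. The log2 fold change of PTCH1 was 0.056 (SE 0.19, 95% confidence interval −0.35 to 0.46), with an adjusted p of 0.916 (edgeR quasi-likelihood test, Benjamini-Hochberg over all genes tested). The upper bound of this interval is below the log2 fold change of HHIP. That value was selected for its rise in these same libraries, and the difference between the genes was not tested. The sign of the PTCH1 value rested on single libraries: leaving out SCR library a gave −0.11, and leaving out siTLN1 library a gave −0.039.

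GLI1, the GLI factor that is itself a target of the pathway, was low in both groups. GLI1 (ENSG00000111087.10; chromosome 12, 57459785 to 57472268, plus strand) had 64 and 85 raw counts in SCR and 85 and 135 in siTLN1, or 2.01 and 2.44 CPM against 2.34 and 2.87 CPM. The lower siTLN1 library lay below the higher SCR library, while each siTLN1 library lay above the SCR library of the same letter. With the replicate number, limma-trend gave an adjusted p of 0.445 for GLI1. In the same edgeR test as for PTCH1, the log2 fold change of GLI1 was 0.23 (SE 0.21, 95% confidence interval −0.21 to 0.67, adjusted p 0.603). A log2 fold change as large as that of HHIP, itself selected for its rise, lies above this interval. Smaller values within it cannot be told from 0 with these libraries, and the difference from HHIP was not tested.

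**Figure D2:**
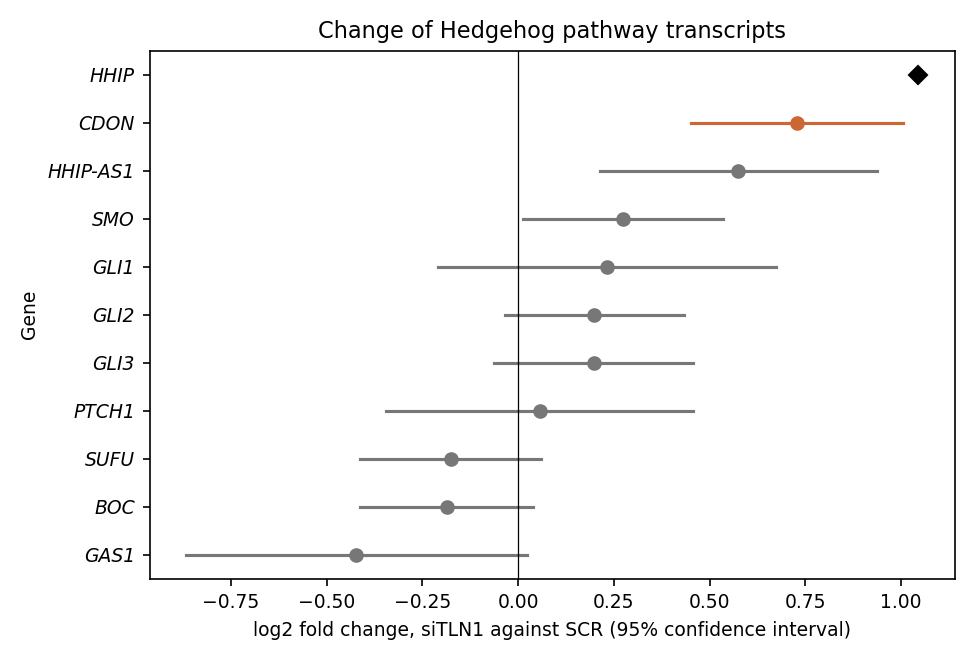
Log2 fold change of siTLN1 against SCR from edgeR for the 9 genes and for HHIP-AS1 and BOC, with 95% confidence intervals (HHIP, black diamond, is shown without one because it was chosen on this contrast; orange marks an adjusted p under 0.05). CDON at 0.73 is the only tested gene of the plot in orange, and the intervals of PTCH1 and GLI1 include 0.

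Among the 8 genes other than HHIP, 1 passed an adjusted p of 0.05, and it rose. Over all genes tested, 6.07% passed in either direction, 2.3% were higher and 3.77% were lower. The gene that passed was CDON (ENSG00000064309.14; chromosome 11, 125955796 to 126063335, minus strand), a cell-surface coreceptor of the immunoglobulin superfamily. CDON had 8.40 and 8.33 CPM in SCR and 15.1 and 12.6 CPM in siTLN1, with no overlap between the groups. The means were 8.36 ± 0.0514 CPM (SD, n = 2) and 13.9 ± 1.78 CPM (SD, n = 2), and the log2 fold change was 0.73 (SE 0.13, adjusted p 0.00285 in edgeR). Without siTLN1 library a it was 0.60 with an adjusted p of 0.0709, so the call needs that library. Exons of VSIG10L2 on the opposite strand share 26.7% of the CDON exon bases, and VSIG10L2 itself received 1 count over all 4 libraries.

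The other coreceptors did not rise with CDON. GAS1, a membrane-anchored coreceptor (chromosome 9, 86944362 to 86947506, minus strand), had 2.45 and 2.64 CPM in SCR and 2.12 and 1.72 CPM in siTLN1. Both siTLN1 libraries lay below both SCR libraries, with a log2 fold change of −0.42 (95% confidence interval −0.87 to 0.023) that did not pass (adjusted p 0.283 in edgeR). BOC, the closest relative of CDON in the pathway, had 28.6 and 32.8 CPM in SCR and 25.9 and 28.1 CPM in siTLN1, a log2 fold change of −0.19 (adjusted p 0.360 in edgeR).

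SMO and SUFU, the proteins between the receptor and the GLI factors, showed small differences that did not pass in edgeR. SMO (chromosome 7, 129188633 to 129213545, plus strand) had 13.7 and 13.6 CPM in SCR and 18.2 and 14.9 CPM in siTLN1. Both siTLN1 libraries were above both SCR libraries, but they differed from each other by more than the lower one differed from SCR. Its log2 fold change was 0.27 (SE 0.12, adjusted p 0.226 in edgeR). SMO passed only in limma-trend with the replicate number (adjusted p 0.0224), though no label states a shared preparation. SUFU (chromosome 10, 102503987 to 102633535, plus strand) had 15.5 and 15.9 CPM in SCR and 13.8 and 14.0 CPM in siTLN1. Its replicates lay close together in each group and the groups did not overlap, with a log2 fold change of −0.18 (SE 0.11, adjusted p 0.422 in edgeR).

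GLI2 and GLI3 were the GLI factors present at an appreciable level, and neither passed in edgeR. GLI2 (chromosome 2, 120735623 to 120992653, plus strand) had 21.5 and 24.7 CPM in SCR and 27.9 and 25.2 CPM in siTLN1. The higher SCR library and the lower siTLN1 library differed little, and the log2 fold change was 0.20 (SE 0.11, adjusted p 0.342 in edgeR). GLI3 (chromosome 7, 41960949 to 42237870, minus strand) had 47.0 and 38.9 CPM in SCR and 54.3 and 44.2 CPM in siTLN1. Its groups overlapped, with a log2 fold change of 0.20 (SE 0.12, adjusted p 0.404 in edgeR). In both groups library a held more GLI3 than library b. GLI3 passed only in limma-trend with the replicate number (adjusted p 0.0254).

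Per length, the repressor-type factor GLI3 and the activator GLI2 exceeded the target gene GLI1 in every library. In SCR the level of HHIP was 8.09 ± 0.634 CPM per kb of exon (SD, n = 2), followed by GLI3 (3.87 ± 0.515), GLI2 (3.14 ± 0.306), SMO (2.87 ± 0.00212) and SUFU (2.29 ± 0.0438). Lower levels in SCR, on the same scale, were found for GAS1 (0.810 ± 0.0422), CDON (0.789 ± 0.00488), GLI1 (0.488 ± 0.0663) and PTCH1 (0.187 ± 0.0337). The libraries of neighbours in this order did not overlap, except those of GAS1 and CDON. In siTLN1 the order was the same but for CDON (1.31 ± 0.168), which stood above GAS1 (0.610 ± 0.0880), and there the libraries of GLI2 and SMO overlapped, as did those of GAS1 and GLI1. HHIP reached 16.7 ± 0.686 CPM per kb in siTLN1, whereas PTCH1 stood at 0.196 ± 0.0194. The lengths count every annotated exon of a gene, 17.196 kb for PTCH1 and 11.939 kb for HHIP, so a gene whose cells use a short transcript appears lower on this scale. They also include exon bases shared with other genes, 26.7% for CDON and 0% for GAS1. Read pairs that meet exons of 2 genes are left uncounted with the default settings, so CDON may stand too low beside GAS1. The change in their order between the groups therefore depends on the length used.

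**Figure D3:**
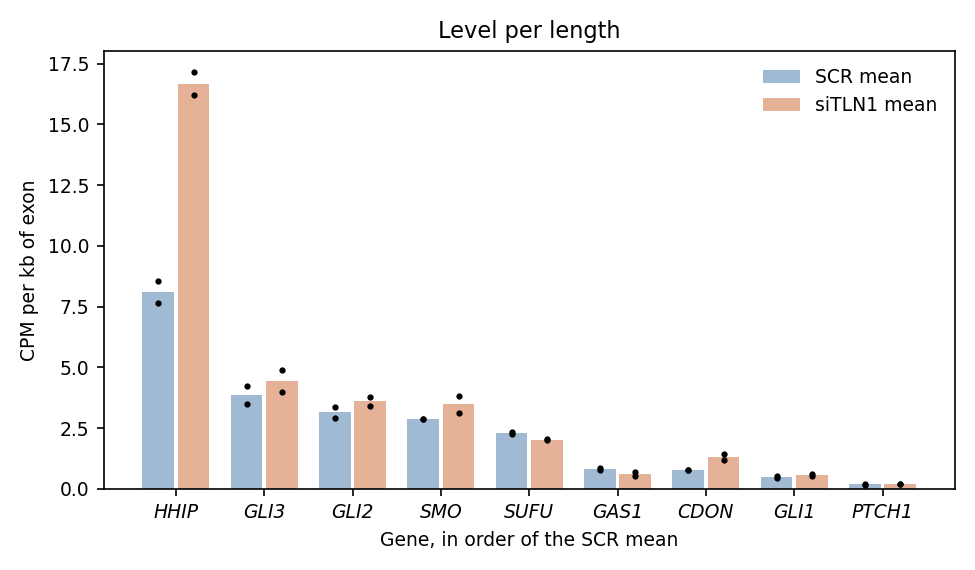
CPM per kb of exon for the 9 genes in order of their SCR mean, with bars for the mean of each group (blue SCR, orange siTLN1) and 1 black point per library. HHIP rises from 8.09 to 16.7, and GLI1 and PTCH1 stay at the low end in both groups.

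The antisense gene HHIP-AS1, on the opposite strand, was also counted. The gene as counted reaches into HHIP, up to position 144661357, whereas the RefSeq start site behind the window shown above lies at 144646019, so the annotations differ in where HHIP-AS1 begins. HHIP-AS1 (ENSG00000248890.2; chromosome 4, 144642922 to 144661357, minus strand) received 102 and 146 counts in SCR and 191 and 272 in siTLN1, or 3.21 and 4.19 CPM against 5.25 and 5.79 CPM. Both siTLN1 libraries were higher, with a log2 fold change of 0.57 (SE 0.17, 95% confidence interval 0.21 to 0.94) that did not pass (adjusted p 0.0584 in edgeR). It passed with total counts as the only scaling (adjusted p 0.0287 in edgeR) and in limma-trend with the replicate number (adjusted p 0.00102). It did not pass under the other settings with all 4 libraries, such as DESeq2 (adjusted p 0.138). With 1 library left out, its log2 fold change ran from 0.40 to 0.79. HHIP exceeded HHIP-AS1 by 28.4 and 24.3 times in SCR and by 39.1 and 33.4 times in siTLN1, as a ratio of CPM. The 2 genes share 712 exon bases, which are 5.96% of HHIP and 33.1% of HHIP-AS1. The counting used no strand, so reads from the 2 genes cannot be told apart in principle, but with the default settings read pairs that meet exons of both genes are left uncounted. How many pairs were lost in this way is not known.

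**Figure D4:**
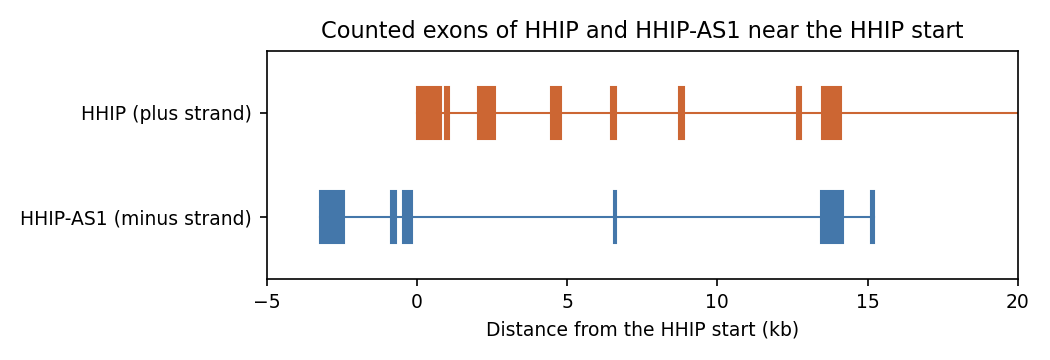
Counted exons of HHIP (orange, plus strand) and HHIP-AS1 (blue, minus strand) against the distance from the HHIP start in kb; thin lines join the exons and the HHIP gene continues to the right. Exons of the genes lie over each other within the HHIP gene, and the shared stretches are the 712 bases given in the text.

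No ligand gene was expressed at a level that the libraries could measure. SHH had 0 counts in all 4 libraries, which allows at most 0.0638 to 0.0944 CPM (3 counts, per library, counting error only). IHH had 2 and 2 counts in SCR and 0 in both siTLN1 libraries, and DHH had 2 and 0 counts in SCR and 0 in siTLN1. These 3 genes did not pass the filter and were not tested.

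A wider list of 73 pathway genes covered ligand release, receptors, transducers, regulators of GLI, the GLI factors, transport in the cilium and known targets. It too was drawn up with earlier results of these data known, which limits the shares below. Of the 72 genes other than HHIP, 64 passed the filter, and 8 of these changed (12.5%, against 6.07% of all genes), 5 of them higher (7.81%, against 2.3%) and 3 lower (4.69%, against 3.77%). The median log2 fold change over the 64 genes was 0.053, beside 0.0033 over all genes tested. The count fell to 3 without siTLN1 library a and to 5 without siTLN1 library b, and it was 8 and 11 without SCR library a and b. Over all genes, 324 rather than 980 passed without siTLN1 library a.

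Among 15 tested targets other than HHIP, 2 rose (13.3%, against 2.3% of all genes higher and 6.07% in either direction). The other 13 did not pass, and 0 fell. The median log2 fold change of the 15 targets was 0.23, beside 0.0033 over all genes. BMP4, a secreted growth factor of the TGF-beta superfamily, had 10.7 and 13.6 CPM in SCR and 21.5 and 19.7 CPM in siTLN1. Its groups did not overlap, and its log2 fold change of 0.76 (SE 0.13, adjusted p 0.00169 in edgeR) passed without each library in turn. Exons on the opposite strand share 16.3% of the BMP4 exon bases, and that unnamed gene (ENSG00000287156.1) had 10 and 6 counts in SCR and 26 and 39 in siTLN1. FOXL1, a forkhead transcription factor, had 5.88 and 7.15 CPM in SCR and 8.49 and 10.6 CPM in siTLN1, a log2 fold change of 0.55 (adjusted p 0.0416 in edgeR). That call was lost with DESeq2 (adjusted p 0.0693), when low counts were not filtered out (adjusted p 0.0697 in edgeR), and without SCR library a (adjusted p 0.150) or siTLN1 library b (adjusted p 0.306). CCND1, the cyclin D1 gene, had a log2 fold change of 0.23 (adjusted p 0.188 in edgeR) and BCL2 one of 0.26 (adjusted p 0.539), so neither passed. MYCN and NKX2-2 had 0 counts in every library.

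Upstream of the receptor, DISP2 rose among 4 tested genes of ligand release (25%, against 2.3% of all genes higher and 6.07% in either direction). The other 3 did not pass. DISP2, a relative of the ligand-release protein DISP1, had 1.82 and 1.69 CPM in SCR and 4.09 and 2.79 CPM in siTLN1. Its log2 fold change was 0.95 (SE 0.23, adjusted p 0.0205 in edgeR), and 0.67 with an adjusted p of 0.251 without siTLN1 library a. DISP1 had a log2 fold change of 0.42 (adjusted p 0.0852 in edgeR).

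Of the listed genes of cyclic AMP signalling, which restrains GLI through protein kinase A, ADCY6 rose and PRKACA fell, while GPR161, ADCY5, PRKACB, PRKAR1A and PRKAR2B did not pass (adjusted p 0.278 to 0.992 in edgeR). ADCY6, an adenylyl cyclase, had 29.9 and 29.3 CPM in SCR and 43.0 and 39.9 CPM in siTLN1, a log2 fold change of 0.49 (adjusted p 0.00687 in edgeR). PRKACA, a catalytic subunit of protein kinase A, had 137 and 138 CPM in SCR and 101 and 103 CPM in siTLN1, a log2 fold change of −0.43 (adjusted p 0.00817 in edgeR). In both genes the spread within a group was small beside the difference between groups. Neither passed without siTLN1 library a (adjusted p 0.124 for ADCY6 and 0.122 for PRKACA), although the log2 fold changes there were 0.44 and −0.41. ADCY6 was the only 1 of 12 transducers to pass (8.33%) and PRKACA the only 1 of 18 regulators of GLI (5.56%). Of all genes, 6.07% passed in either direction, 2.3% higher and 3.77% lower.

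Of 10 genes for transport in the primary cilium, 2 fell (20%, against 3.77% of all genes lower and 6.07% in either direction). The other 8 did not pass. DYNC2H1, the heavy chain of the dynein that returns cargo to the base of the cilium, had 64.6 and 55.1 CPM in SCR and 45.1 and 35.6 CPM in siTLN1. Its log2 fold change was −0.57 (SE 0.12, adjusted p 0.0138 in edgeR), and −0.40 with an adjusted p of 0.0949 without siTLN1 library b. IFT57, a subunit of the particle that carries cargo towards the tip, had 56.9 and 57.5 CPM in SCR and 42.2 and 45.3 CPM in siTLN1. Its log2 fold change was −0.39 (SE 0.096, adjusted p 0.0237 in edgeR). The IFT57 call was lost when low counts were not filtered out (adjusted p 0.0593 in edgeR) and without siTLN1 library a (0.286) or b (0.0633).

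**Figure D5:**
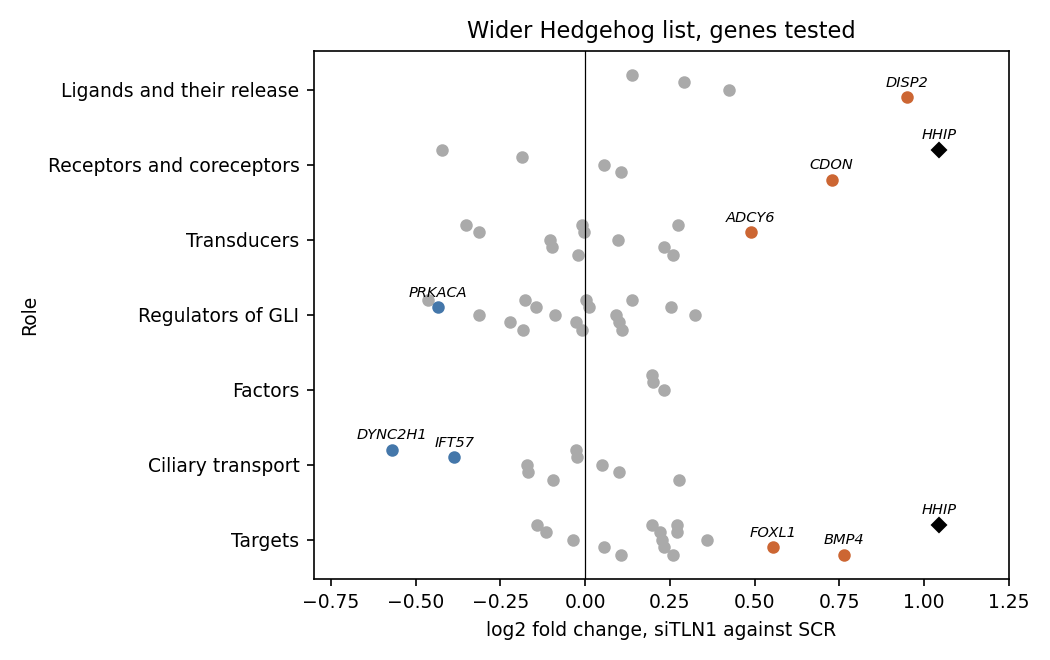
Log2 fold change of siTLN1 against SCR for the tested genes of the wider list by role, 1 point per gene and role (orange higher and blue lower with an adjusted p under 0.05, grey not passed, black diamond HHIP, which was not tested). Genes that passed as lower are PRKACA among the regulators of GLI and DYNC2H1 and IFT57 among the ciliary transport genes.

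Both ciliary genes that fell hold the 7-base word GACAACA in the 3′ UTR of the transcript with the longest coding sequence, a word that earlier results of these data had linked to lower fold changes. Over the tested coding genes with a 3′ UTR of at least 100 bases, the 940 that hold it there had a median log2 fold change of −0.098, with 158 lower and 19 higher calls. The 11016 without it had a median of 0.014, with 385 lower and 290 higher calls. Calls in either direction made up 18.8% of the genes with the word and 6.13% of those without it. The link was first seen in these same libraries, so the values describe it and add no support. The sites are printed because no other called gene of the list holds the word in its 3′ UTR. They come from GENCODE 29 transcripts (GRCh38) and capitals mark the word.
DYNC2H1, chr11:103479251-103479280, plus strand: tagaatctaatGACAACAaaagccatcttc
DYNC2H1, chr11:103479461-103479490, plus strand: agtattcttttGACAACAttaaatatttct
IFT57, chr3:108161465-108161494, minus strand: tttatgtttagGACAACAaaaataatttta
KIF3B, a kinesin motor subunit, also holds 1 copy in its 3′ UTR, and its log2 fold change was −0.17 (adjusted p 0.356 in edgeR). The transcripts chosen for HHIP, PTCH1, SMO, GLI2, GAS1, CDON, BMP4, FOXL1, DISP2, ADCY6 and PRKACA hold no copy in the coding sequence or the 3′ UTR. Those of SUFU, GLI1 and GLI3 hold 1 copy in the coding sequence only, and 1 of 8 annotated HHIP transcripts holds it. Of the annotated transcripts of the genes that fell, 1 of 6 for IFT57 and 8 of 13 for DYNC2H1 hold the word, and which of them these cells use was not tested. The part of this word in the falls of DYNC2H1 and IFT57 was not tested.

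The genes whose levels followed HHIP most closely over the 4 libraries were KRT80, SOX4 and BMP2. Likeness was the root mean square difference of log2 CPM centred on each gene's mean, over 10429 candidate genes with a mean of at least 5 CPM, a gene symbol and no exon shared with HHIP. KRT80, a type II keratin, had a difference of 0.051, with 6.39 and 7.35 CPM in SCR and 13.8 and 12.8 CPM in siTLN1. SOX4, an HMG-box transcription factor, had a difference of 0.0902, with 61.1 and 64.0 CPM in SCR and 119 and 111 CPM in siTLN1. BMP2, a secreted growth factor related to BMP4, had a difference of 0.0924, with 14.2 and 16.2 CPM in SCR and 28.1 and 27.2 CPM in siTLN1. In all 3 genes, as in HHIP, SCR library b was above SCR library a and siTLN1 library b was below siTLN1 library a. With 4 libraries in 2 groups, such likeness requires a rise of similar size. The choice by likeness also favours the same order of libraries within a group, and no test was made.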

How the data were processed

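Polyadenylated RNA was sequenced from stranded libraries, per the labels' protocols. The authors deposited raw counts, from featureCounts 2.0.0 run on read pairs with no strand or multi-mapping option on GENCODE 33 (GRCh38), per the file headers. STAR 2.7.9a and edgeR 3.34.1 are named in the submitters' processing notes. Exon length is a further, other column of the deposited table. The deposited log2 CPM values of 16137 genes equalled edgeR's TMM-scaled values of the same counts, sorted within groups, for 100% of values within 1e-06.

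Count columns name a group but no replicate of the labels, so libraries are called a and b after a number in the column names. Gene IDs were matched to symbols without versions. Counts were filtered with filterByExpr (minimum count 10, minimum total 15), scaled by TMM and tested with edgeR 4.0.16 in R 4.3.3 (robust quasi-likelihood fit, current method), with Benjamini-Hochberg adjustment over the genes tested. The design names 2 biological replicates a group. The p-values rest on the spread between these libraries, which for each gene is estimated largely from that of the other genes. With 2 libraries a group an exact permutation test cannot go below 0.333, so model p-values are given. Groups that do not overlap are therefore only described, and the share of all genes with this pattern was not counted. The alternatives tried were total counts only, RLE scaling, no filter, a mean of at least 10 counts, DESeq2 1.42.0, limma 3.58.1 (voom, and trend on the deposited log2 CPM with and without the replicate number), and each library left out. The procedure was also run on simulated counts with independent libraries, so a preparation shared between the groups was not covered. Figures used matplotlib 3.10.9.

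Named genes are the 9 members, TLN1, HHIP-AS1 and other exon-sharing genes, the ligands, BOC, the wider-list genes past the threshold and the 3 genes most like HHIP; KIF3B, DISP1, CCND1, BCL2, MYCN, NKX2-2 and markers were added after their values were seen. A further gene that the naming rule lists is not reported here. The members and lists were chosen with earlier results of these data known. Words were searched in the transcript with the longest coding sequence per gene of GENCODE 29, and promoter windows came from RefSeq.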

Additional observations from a re-analysis of the deposited data

How the results depend on the processing

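With all 4 libraries, none of the genes followed under the alternatives changed direction. TLN1 kept its call throughout, at −4.18 to −4.16 on the log2 scale, or −4.28 to −4.07 when 1 library was left out. HHIP ranged from 1.04 to 1.06, and from 0.97 to 1.13. With 1 library left out the lone library of a group is taken to vary like the others, and PTCH1 ranged from −0.11 to 0.26. These fits gave 324 to 1100 changed genes, 0 to 1 of the 8 members and 3 to 11 genes of the wider list, and the lowest counts were those without siTLN1 library a. The counts of calls in these fits and the legacy quasi-likelihood method (983 genes) were added after seeing the data. The other settings without the replicate number gave 663 genes with no filter, where more genes enter the adjustment, up to 1253 with total counts only, beside 980. In each of them CDON alone passed among the 8 members. DESeq2 gave no adjusted p for 3755 genes.

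Replicates carry the same numbers in both groups, but no label states a shared preparation. The difference between the numbered replicates of a group, in the deposited log2 CPM, correlated across genes at 0.19 between the groups. For genes of at least 5 CPM the correlation was 0.54. With the replicate block, limma-trend on the deposited values gave 3650 changed genes, 3 members (CDON, with SMO at an adjusted p of 0.0224 and GLI3 at 0.0254) and 25 genes of the wider list; HHIP-AS1 also passed (0.00102). Without the block it gave 951 genes, 1 member and 8 list genes. PTCH1, GLI1 and GAS1 were each below 4 CPM in every library, with wider intervals than the other 5 tested members.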
